A study of Homo sapiens with 12 samples.

Results

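The genes described here are 40 members of the protein folding and quality control machinery of the endoplasmic reticulum (ER) and of the unfolded protein response that regulates it, measured in MDA231 cells. Members were chosen by name: a probe set counted as a member when the gene symbol annotated to it was on the list of 40. The list was drawn up with earlier results of these data known. Of these, 39 had a tested value among 12886 tested genes. SYVN1, an ER ubiquitin ligase, had none because its probe set carries 2 gene symbols. The members fall into sensors and transcription factors (4 tested genes), the HSP70 and HSP90 chaperone system (9), disulfide and proline isomerases (7), the lectin folding cycle (3), ER-associated degradation (10), translocation (4) and 2 others.

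MDA231 (MDA-MB-231) is an established cell line of human triple-negative breast cancer, and its RNA was hybridised to 12 single-colour Affymetrix arrays. The ETX group, 3 arrays, carried a scrambled hairpin and was exposed to ETX, which the labels do not expand. It is taken here to be etomoxir, a drug that inhibits carnitine palmitoyltransferase 1 (CPT1). The shCPT-1 group, 3 arrays, carried a short hairpin RNA against CPT1, with no isoform named, and the shCPT-2 group, 3 arrays, one against CPT2. The control was scramble, 3 arrays of cells with the scrambled hairpin and no ETX. Hairpins against CPT1 and CPT2 were delivered with the pGIPZ lentivirus, so that all 4 groups held a hairpin construct. CPT1 and CPT2 shuttle long-chain fatty acids across the mitochondrial membranes to be oxidised, and the comparisons ask how expression differs when that step is inhibited or its enzymes are depleted. The sources used here do not give the ETX dose and duration for these cells, or say whether a knockdown line was 1 clone. ETX and scramble share the scrambled hairpin, while each knockdown group carried another hairpin. In every comparison with a knockdown, depletion of the enzyme therefore cannot be told apart from other differences between the hairpin lines. The labels do not say whether a group's arrays stand for separate cultures, so the p-values below measure only the spread among the arrays, possibly technical. Because RNA was bulk, a change in every cell and a change in a share of the cells cannot be told apart.

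Proteins that enter the secretory pathway pass the Sec61 channel into the ER, where chaperones, disulfide isomerases and the sugar-binding chaperones calnexin and calreticulin help them fold. Chains that stay misfolded are unwound, moved back to the cytosol and degraded. When unfolded chains accumulate, the membrane sensors IRE1 (ERN1), PERK (EIF2AK3) and ATF6 start the unfolded protein response: IRE1 splices XBP1 mRNA into that of an active transcription factor, ATF6 is cut to release another, and PERK slows translation and raises ATF4. XBP1 and ATF6 are known to bind the ER stress response element (ERSE) in the promoters of many chaperone genes.

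The promoters of 37 members could be matched to RefSeq windows on GRCh38.p14, each running from 250 bases before an annotated transcription start to 50 after it. A gene can have several annotated starts, and 6 of these members had more than 1 window, CANX and PDIA6 among them. In CANX and PDIA6 the printed site lies at a start inside the locus, downstream of its outermost annotated end. The windows are shown because the ERSE is the sequence feature these genes are best known for, and because the genes that carry it did not all move in the same way below. The ERSE was searched on both strands as CCAAT, 9 bases of any kind, then CCACG. It was found in 9 of the 37 members, 24.3%, against 0.0916% of the 27305 genes with a window, members included. Each site is printed with up to 10 flanking bases, read 5′ to 3′ on the strand that carries the motif, with the fixed letters of the motif in capitals. HSP90B1 held a pair of them.
HSPA5, chr9:125241381-125241419, minus strand: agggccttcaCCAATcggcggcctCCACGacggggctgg
XBP1, chr22:28800593-28800631, minus strand: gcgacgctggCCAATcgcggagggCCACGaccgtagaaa
ERO1B, chr1:236282173-236282208, plus strand: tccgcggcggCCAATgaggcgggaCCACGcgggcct
PDIA6, chr2:10812843-10812881, minus strand: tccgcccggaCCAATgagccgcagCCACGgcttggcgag
CANX, chr5:179698768-179698806, plus strand: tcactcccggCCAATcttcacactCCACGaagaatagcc
SERP1, chr3:150546700-150546738, plus strand: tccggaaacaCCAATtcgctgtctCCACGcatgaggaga
CALR, chr19:12938374-12938412, minus strand: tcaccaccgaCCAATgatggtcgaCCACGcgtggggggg
CRELD2, chr22:49918544-49918582, minus strand: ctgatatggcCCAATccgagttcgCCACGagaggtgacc
HSP90B1 first site, chr12:103930206-103930244, plus strand: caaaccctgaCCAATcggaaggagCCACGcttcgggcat
HSP90B1 second site, chr12:103930311-103930349, minus strand: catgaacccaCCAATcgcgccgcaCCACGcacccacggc

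A shorter relative, ERSE-II, was searched on both strands as ATTGG, 1 base of any kind, then CCACG, and was found in 3 of the 37 members, 8.11%, against 0.0696% of all genes with a window. HYOU1 held a pair of these sites.
HERPUD1, chr16:56932015-56932045, plus strand: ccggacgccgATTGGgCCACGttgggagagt
HYOU1 first site, chr11:119057264-119057294, plus strand: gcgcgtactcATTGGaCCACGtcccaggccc
HYOU1 second site, chr11:119057370-119057400, plus strand: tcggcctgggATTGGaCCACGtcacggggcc
SDF2L1, chr22:21642104-21642134, minus strand: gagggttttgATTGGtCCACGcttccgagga

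The XBP1-binding UPRE core TGACGTGG, also searched on both strands, was present in 2 members, DNAJC10 and HYOU1, against 0.927% of all genes with a window. In HYOU1 it overlaps the second ERSE-II site. The A form of that core, TGACGTGA, was found in 0 members, against 0.52% of genes. TGATGCAA, the core of the composite element that ATF4 binds, was present in 1 member, HERPUD1, against 1.08% of genes. A match describes letters in the window and shows no binding. Only exact matches to the searched letters were counted, so sites that depart from them by a letter or more are neither counted nor marked. To place the site in its setting, the 250 bases before the start of HSPA5 are given on the gene's strand, chr9:125241344-125241593, minus strand. The whole of the exact ERSE match is in capitals.
HSPA5 upstream: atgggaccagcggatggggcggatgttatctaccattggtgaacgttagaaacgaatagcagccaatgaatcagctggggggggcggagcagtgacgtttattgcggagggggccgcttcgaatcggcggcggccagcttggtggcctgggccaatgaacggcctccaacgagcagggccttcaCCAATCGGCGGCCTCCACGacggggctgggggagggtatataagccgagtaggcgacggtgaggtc

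The arrays were alike in overall level, with medians of 74.9 to 77.2 on the linear scale and correlations between arrays of a group of 0.9945 to 0.9989. CPT1A fell by 1.59 on the log2 scale in shCPT-1 (SE 0.08, limma adjusted p = 1.97e-08), and CPT2 fell by 1.0 in shCPT-2 (SE 0.10, adjusted p = 5.46e-06). CPT1A was higher with ETX (1.11, adjusted p = 1.46e-06) and lower in shCPT-2 (-0.23, adjusted p = 0.0318). CPT2 was higher with ETX (0.27, adjusted p = 0.043) and was not called in shCPT-1 (0.22, adjusted p = 0.0987). All 6 markers of the MDA-MB-231 line lay above the array median on every array. PGR and CDH1 of 6 luminal breast markers lay below it on every array, as did PTPRC, CD14 and LYZ of 4 measured leukocyte markers, CDH5 and VWF of 4 endothelial markers and COL1A2 and LUM of 5 fibroblast markers. The luminal markers ESR1, GATA3, KRT8 and ERBB3 lay above the median on every array, as did CD3E, PECAM1, TEK and COL1A1 of the other lists, while DCN did on 2 arrays and PDGFRB on 7. KRT8 was at 10.40 to 11.22 and GATA3 at 8.67 to 9.04, and the others among those 8 lay between 6.28 and 8.31. One RNA quality measure moved with the groups. The actin control probes gave a difference of 3′ minus 5′ log2 signal of 1.75 ± 0.06 in ETX, 1.73 ± 0.23 in shCPT-1 and 1.68 ± 0.23 in shCPT-2, against 2.07 ± 0.27 in scramble (SD, n = 3 each). The scramble arrays gave 2.25, 2.19 and 1.76. Members whose call against scramble is lost when this difference enters the fit are named with each comparison, and its part in the results was otherwise not tested.

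Values below are log2 intensities, changes are differences of group means on that scale, and a gene was called at a limma adjusted p under 0.05 over all 12886 tested genes. Probe sets of different genes bind with different strength, so a level is set only against the same probe set on other arrays. Groups whose arrays do not overlap were common in these data. Of the 12886 tested genes, 3321 lay wholly above scramble and 3064 wholly below it with ETX. These counts were 3578 and 3007 in shCPT-1, and 3649 and 3104 in shCPT-2. Among the 39 members they were 25 and 1, 15 and 14, and 12 and 18. Averaged over the 39 members, the log2 level was 10.69 on each of the 3 ETX arrays, 10.38, 10.34 and 10.33 on the shCPT-1 arrays and 10.29, 10.23 and 10.29 on the shCPT-2 arrays, against 10.33, 10.37 and 10.40 on the scramble arrays. The ETX arrays were the high ones, and the shCPT-2 arrays lay below all scramble arrays. Such averages are pulled down by a few large falls, here those of SVIP and WFS1. Against scramble, SVIP changed by -2.17 with the CPT1 hairpin and -1.82 with the CPT2 hairpin, and WFS1 by -1.44 and -1.71. The median member change was 0.07 and -0.03. The low shCPT-2 averages thus do not show a fall of the machinery as a whole. The moderated F test over the 4 groups called 38 of the 39 members, DERL3 being the exception, and 69.8% of all tested genes.

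**Figure D1:**
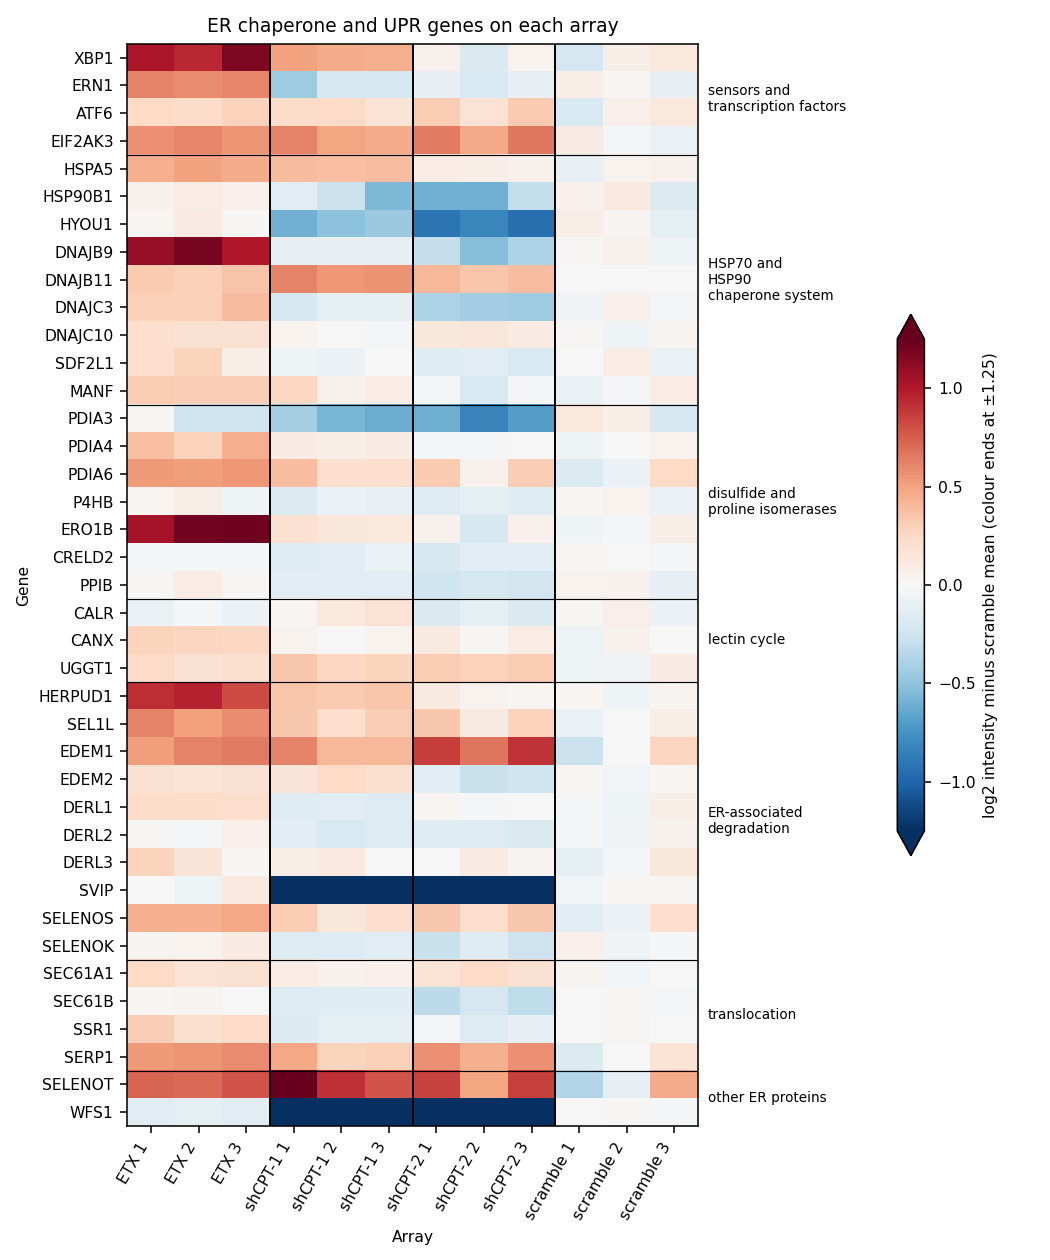
Each row is 1 member and each column 1 array, coloured by its log2 intensity minus the mean of the 3 scramble arrays, with rows grouped by role and arrays ordered ETX, shCPT-1, shCPT-2, scramble. Most rows are raised in the ETX columns, while SVIP and WFS1 are low in both knockdowns and near scramble with ETX.

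Exposure to ETX was accompanied by higher levels of most of the machinery. With ETX, 26 of 39 members were higher than in scramble and 1 was lower, where 21.9% of all tested genes were called higher and 19.4% lower. The members' median change was 0.25, against -0.01 over all tested genes. The rises covered all 4 sensors and transcription factors, 7 of 9 genes of the HSP70 and HSP90 system, 3 of 7 isomerases, 2 of 3 lectin cycle genes, 6 of 10 degradation genes and 3 of 4 translocation genes. The 3 members that at least doubled were ERO1B, DNAJB9 and XBP1.

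ERO1B, an oxidase that recharges disulfide isomerases, read 8.56, 8.73 and 8.73 with ETX, against 7.46, 7.49 and 7.60 in scramble. The groups did not overlap, and the level was 2.23-fold higher (log2 change 1.16, SE 0.07, limma adjusted p = 7.12e-07). DNAJB9, a BiP co-chaperone that also restrains IRE1, read 9.80, 9.89 and 9.71 with ETX, against 8.72, 8.76 and 8.65 in scramble. It was 2.13-fold higher (1.09, SE 0.06, adjusted p = 2.98e-07). All 3 kept probe sets of DNAJB9 were higher with ETX, by 1.09, 1.18 and 1.61. XBP1 read 9.80, 9.73 and 9.96 with ETX, against 8.58, 8.86 and 8.92 in scramble. This was a 2.06-fold difference (1.04, SE 0.09, adjusted p = 8.49e-06). A second and dimmer XBP1 probe set differed by -0.19 and was not called (adjusted p = 0.16 in the fit of all probe sets). The array measures total XBP1 mRNA and gives no spliced share.

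Among the sensors, ERN1 read 8.73, 8.69 and 8.72 with ETX, against 8.19, 8.12 and 8.0 in scramble. All ETX values lay above all scramble values (0.61, SE 0.07, adjusted p = 4.42e-05). EIF2AK3 read 8.33, 8.37 and 8.31 with ETX, against 7.86, 7.74 and 7.67 in scramble, again without overlap (0.58, SE 0.07, adjusted p = 5.67e-05). ATF6 rose by 0.25 (SE 0.07, adjusted p = 0.0165). With the actin difference as a covariate ATF6 was no longer called (0.16, adjusted p = 0.126), nor was it without scramble replicate 1.

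Among the folding chaperones, HSPA5, which encodes BiP, the main HSP70 of the ER and a brake on all 3 sensors, read 13.16, 13.20 and 13.16 with ETX, against 12.60, 12.74 and 12.75 in scramble. It was 1.39-fold higher (0.48, SE 0.05, adjusted p = 1.63e-05). Its co-chaperones DNAJB11 and DNAJC3 both rose by 0.33, DNAJC10 by 0.20 and MANF, a secreted protein that binds BiP, by 0.31. HSP90B1, the ER HSP90 known as GRP94, differed by 0.07 (adjusted p = 0.645), and HYOU1, a large HSP70 that exchanges nucleotide on BiP, by 0.05 (adjusted p = 0.579). HYOU1 read 11.99, 12.07 and 11.98 with ETX, against 12.05, 12 and 11.84 in scramble, and the groups overlapped. With the actin covariate HYOU1 was called higher with ETX (0.15, adjusted p = 0.0344). HSP90B1 and HYOU1 both hold ERSE or ERSE-II sites, so carrying a site did not go with a called rise in each case. Of the 9 members with an ERSE, 6 were called higher with ETX, and CALR (-0.06), CRELD2 (-0.02) and HSP90B1 were not called. That share was no higher than the 26 of 39 among all members, where 21.9% of all tested genes were called higher. Of the 3 with ERSE-II, HERPUD1 and SDF2L1 (0.19, adjusted p = 0.0233) were called and HYOU1 was not. The SDF2L1 groups overlapped, and its call was lost without scramble replicate 1 or 3, without ETX replicate 1 or 2 and in a fit of only the groups compared.

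Among the other isomerases and the lectin cycle, PDIA6 rose by 0.53 (SE 0.10, adjusted p = 0.00166) and PDIA4 by 0.37 (SE 0.05, adjusted p = 0.000115). The used PDIA6 probe set is of a type that can cross-hybridise, and the 3 others rose as well, by 0.22 to 0.70. P4HB, the founding disulfide isomerase, differed by 0.01 and PDIA3, which works with the lectins, read 10.25, 9.98 and 9.98 with ETX, against 10.36, 10.30 and 10.03 in scramble (-0.16, adjusted p = 0.225). For each of these a dimmer probe set was called higher, by 0.66 for P4HB and 0.33 for PDIA3. Calnexin (CANX) rose by 0.27 and UGGT1, which re-tags misfolded glycoproteins for another round, by 0.21.

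In ER-associated degradation, HERPUD1, a membrane scaffold of the ubiquitin ligase complex, read 11.04, 11.08 and 10.94 with ETX, against 10.14, 10.06 and 10.15 in scramble. It was 1.87-fold higher (0.90, SE 0.05, adjusted p = 1.64e-07), and the ranges were far apart. A dimmer HERPUD1 probe set did not move with it (-0.04, adjusted p = 0.71), and the mean of both was higher by 0.43. EDEM1, which takes glycoproteins out of the folding cycle, read 9.73, 9.82 and 9.85, against 8.94, 9.20 and 9.47 in scramble (0.60, SE 0.11, adjusted p = 0.00148). The scramble values of EDEM1 spread widely, and the highest was on scramble replicate 3, the scramble array with the lowest actin difference. SEL1L, the partner of the SYVN1 ligase, rose by 0.57 (SE 0.07, adjusted p = 5.52e-05), SELENOS by 0.46, DERL1 by 0.23 and EDEM2 by 0.19. SVIP, a small inhibitor of this degradation, was level with scramble at 9.73, 9.68 and 9.85, against 9.69, 9.75 and 9.74 (0.02, adjusted p = 0.781).

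Among translocation genes, SERP1, which stabilises membrane proteins at the channel, rose by 0.56, the translocon-associated subunit SSR1 by 0.25 and the channel subunit SEC61A1 by 0.21. All 6 kept SSR1 probe sets rose. Outside these roles, SELENOT, an ER thioredoxin-like selenoprotein, read 10.39, 10.36 and 10.44 with ETX, against 9.29, 9.55 and 10.12 in scramble. The ETX values lay above all 3 scramble values, which themselves spread widely (0.74, SE 0.18, adjusted p = 0.00669). With the actin covariate the SELENOT difference was 0.38 (adjusted p = 0.0218). A second probe set for SELENOT differed by -0.12 (adjusted p = 0.0572). The 1 member called lower was WFS1, an ER membrane protein that restrains ATF6, at 10.62, 10.63 and 10.61 with ETX, against 10.76, 10.77 and 10.74 in scramble (-0.13, SE 0.04, adjusted p = 0.0289). That call was lost under several settings, among them without scramble replicate 1 or 2, without any 1 ETX replicate and with the actin covariate (adjusted p = 0.0746).

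**Figure D2:**
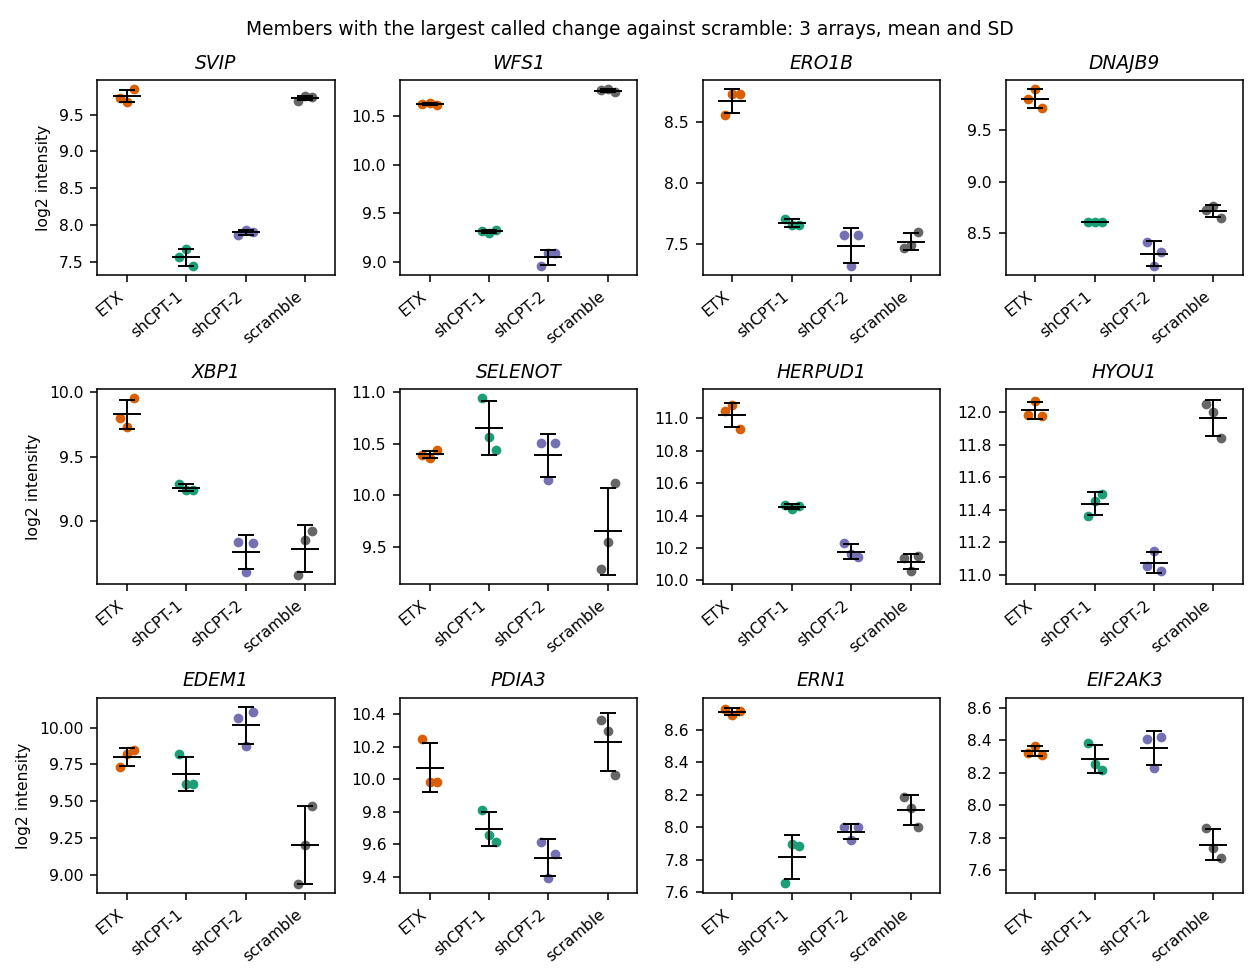
Log2 intensity (vertical axis, ranges differ by gene) on every array for the 12 members with the largest called change, with groups in the order ETX, shCPT-1, shCPT-2, scramble, 1 point per array, a long bar at the group mean and error bars of 1 SD. ERO1B and DNAJB9 are higher with ETX than in the other 3 groups, SVIP and WFS1 are low in both knockdowns, and EIF2AK3 is higher in all 3 groups than in scramble.

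In shCPT-1 the machinery split instead of moving one way. Of 39 members, 13 were higher and 14 were lower than in scramble, against 23.1% and 18% of all tested genes, and the median change was 0.07 (0.01 over all tested genes). Of the sensors and transcription factors 3 were higher and 1 was lower. Of the HSP70 and HSP90 system 2 were higher and 3 were lower, and of the isomerases 0 were higher and 3 were lower. Degradation genes split into 5 higher and 4 lower. With the actin covariate 9 of the calls in shCPT-1 were lost, those of ATF6 and SELENOS among the higher and of HSP90B1, DNAJC3, CRELD2, PPIB, SELENOK, SEC61B and SSR1 among the lower members (adjusted p = 0.052 to 0.412). HYOU1 and PDIA3 thus remained of the 3 lower members in each of the chaperone and isomerase groups. PPIB (-0.14) lost its call in 15 of 25 alternatives and SELENOS in 14 of 24. SSR1 lost its call in 12 of 25 and reversed in 1 more.

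The largest member changes were falls. SVIP read 7.56, 7.68 and 7.44 in shCPT-1, against 9.69, 9.75 and 9.74 in scramble. It was 4.49-fold lower (-2.17, SE 0.06, adjusted p = 4.19e-10). WFS1 read 9.32, 9.30 and 9.33, against 10.76, 10.77 and 10.74 in scramble, which was 2.71-fold lower (-1.44, SE 0.04, adjusted p = 7.19e-10). Neither gene's groups came near each other, and all 3 SVIP and both WFS1 probe sets were called lower. HYOU1 read 11.36, 11.46 and 11.50, against 12.05, 12 and 11.84 in scramble (-0.53, SE 0.06, adjusted p = 2.95e-05). PDIA3 read 9.81, 9.65 and 9.61, against 10.36, 10.30 and 10.03 in scramble (-0.54, SE 0.10, adjusted p = 0.000978). For PDIA3 a dimmer second probe set went the other way (0.19, adjusted p = 0.0244), and with the mean of its probe sets the call was lost (-0.10, adjusted p = 0.222).

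Rises in shCPT-1 were led by SELENOT at 10.94, 10.56 and 10.44, against 9.29, 9.55 and 10.12 in scramble (0.99, SE 0.18, adjusted p = 0.00089). Its second probe set was also called higher, by 0.34. DNAJB11 rose by 0.57 (SE 0.04, adjusted p = 5.35e-07). EIF2AK3 read 8.38, 8.26 and 8.22, against 7.86, 7.74 and 7.67 in scramble, without overlap (0.53, SE 0.07, adjusted p = 5.03e-05). EDEM1 read 9.82, 9.62 and 9.62, against 8.94, 9.20 and 9.47 in scramble (0.48, SE 0.11, adjusted p = 0.0045). HSPA5 read 13.10, 13.07 and 13.08, against 12.60, 12.74 and 12.75 in scramble, with every shCPT-1 value above every scramble value (0.39, SE 0.05, adjusted p = 3.12e-05). HERPUD1 read 10.46, 10.44 and 10.46, against 10.14, 10.06 and 10.15 in scramble (0.34, SE 0.05, adjusted p = 0.000145), a call lost with the mean of its probe sets (0.11, adjusted p = 0.0906).

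XBP1 and ERN1 were called in opposite directions in shCPT-1. XBP1 read 9.29, 9.24 and 9.24, against 8.58, 8.86 and 8.92 in scramble (0.47, SE 0.09, adjusted p = 0.0013), but its dimmer probe set differed by -0.34 (adjusted p = 0.0234), and the mean of both was not called (0.07, adjusted p = 0.413). ERN1 read 7.66, 7.90 and 7.89, against 8.19, 8.12 and 8.0 in scramble (-0.29, SE 0.07, adjusted p = 0.00431). With the mean of its probe sets in place of the brightest, ERN1 did not differ in a called way (0.00222, adjusted p = 0.979). ERO1B and DNAJB9, the most raised members with ETX, were not called in shCPT-1. ERO1B read 7.70, 7.65 and 7.65, against 7.46, 7.49 and 7.60 in scramble (0.15, adjusted p = 0.112), and DNAJB9 read 8.61 on all 3 arrays, against 8.72, 8.76 and 8.65 (-0.10, adjusted p = 0.214).

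In shCPT-2 more members were lower than higher. Of 39 members, 11 were higher and 16 were lower than in scramble, against 25.6% and 20.5% of all tested genes, with a median change of -0.03 (0.00 over all tested genes). Chaperones and isomerases held most of the falls: 5 of 9 genes of the HSP70 and HSP90 system and 4 of 7 isomerases were lower, against 2 and 0 higher. Among these falls, SDF2L1 lost its call in 15 of 24 alternatives and P4HB in 8 of 25. Of the 4 sensors and transcription factors, EIF2AK3 and ATF6 were higher and none was lower.

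WFS1 read 8.96, 9.09 and 9.10 in shCPT-2, against 10.76, 10.77 and 10.74 in scramble, a 3.27-fold lower level (-1.71, SE 0.04, adjusted p = 1.5e-10). SVIP read 7.87, 7.93 and 7.91, against 9.69, 9.75 and 9.74 in scramble, 3.54-fold lower (-1.82, SE 0.06, adjusted p = 8.24e-10). All probe sets of both genes were again called lower. HYOU1 read 11.05, 11.15 and 11.03, against 12.05, 12 and 11.84 in scramble (-0.89, SE 0.06, adjusted p = 2.73e-07). PDIA3 read 9.62, 9.39 and 9.54, against 10.36, 10.30 and 10.03 in scramble (-0.71, SE 0.10, adjusted p = 8.86e-05), while its second probe set was higher by 0.29 (adjusted p = 0.0019) and the mean of its probe sets was not called (-0.14). GRP94 (HSP90B1) fell by 0.50 (SE 0.11, adjusted p = 0.0027), and both its probe sets were lower. Both are of a type that can cross-hybridise.

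DNAJB9 read 8.41, 8.18 and 8.32 in shCPT-2, against 8.72, 8.76 and 8.65 in scramble (-0.41, SE 0.06, adjusted p = 0.000206). Its dimmer probe sets differed by -0.00499 and 0.12 and were not called, so that this fall rests on the brightest one. DNAJC3, a BiP co-chaperone that also inhibits PERK, fell by 0.42 (adjusted p = 1.68e-05). Smaller falls were those of the channel subunit SEC61B (-0.29), SELENOK (-0.23) and the prolyl isomerase PPIB (-0.23). Calreticulin (CALR) was called lower by the fit as described (-0.16, adjusted p = 0.0268), but the call was lost in 9 of 25 alternatives, among them the actin covariate (-0.07, adjusted p = 0.317), the mean of its probe sets and leaving out scramble replicate 1 or 2 or shCPT-2 replicate 1 or 3.

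EDEM1 was the most raised member in shCPT-2, at 10.07, 9.87 and 10.11, against 8.94, 9.20 and 9.47 in scramble (0.81, SE 0.11, adjusted p = 8.56e-05). SELENOT read 10.50, 10.15 and 10.51, against 9.29, 9.55 and 10.12 in scramble (0.73, SE 0.18, adjusted p = 0.00547), a difference of 0.29 that was no longer called with the actin covariate (adjusted p = 0.0659). The lowest shCPT-2 value of SELENOT lay just above the highest scramble value. EIF2AK3 read 8.41, 8.23 and 8.42, against 7.86, 7.74 and 7.67 in scramble (0.60, SE 0.07, adjusted p = 1.4e-05), and SERP1 rose by 0.53 (adjusted p = 0.000201). The calls for SEL1L (0.25), SELENOS (0.30) and ATF6 (0.27) were lost with the actin covariate (adjusted p = 0.132, 0.149 and 0.139), as were those of DNAJC10, SDF2L1 and P4HB (adjusted p = 0.0799, 0.29 and 0.271). XBP1, ERO1B, HERPUD1 and HSPA5, all raised with ETX, were not called: XBP1 read 8.84, 8.61 and 8.83 (-0.03, adjusted p = 0.824), ERO1B 7.57, 7.32 and 7.57 (-0.03, adjusted p = 0.756), HERPUD1 10.23, 10.16 and 10.14 (0.06, adjusted p = 0.317) and HSPA5 12.79, 12.78 and 12.76 (0.08, adjusted p = 0.195). A dimmer HSPA5 probe set was called lower in shCPT-2 (-0.25, adjusted p = 0.00174). ERN1 read 8.0, 7.92 and 8.0, against 8.19, 8.12 and 8.0 in scramble, and was not called (-0.13, adjusted p = 0.132). A dimmer ERN1 probe set was called higher in shCPT-2 (0.38, limma adjusted p = 0.00403 in the fit of all probe sets), and another was not called (0.04). The direction of ERN1 in shCPT-2 thus depends on the probe set.

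**Figure D3:**
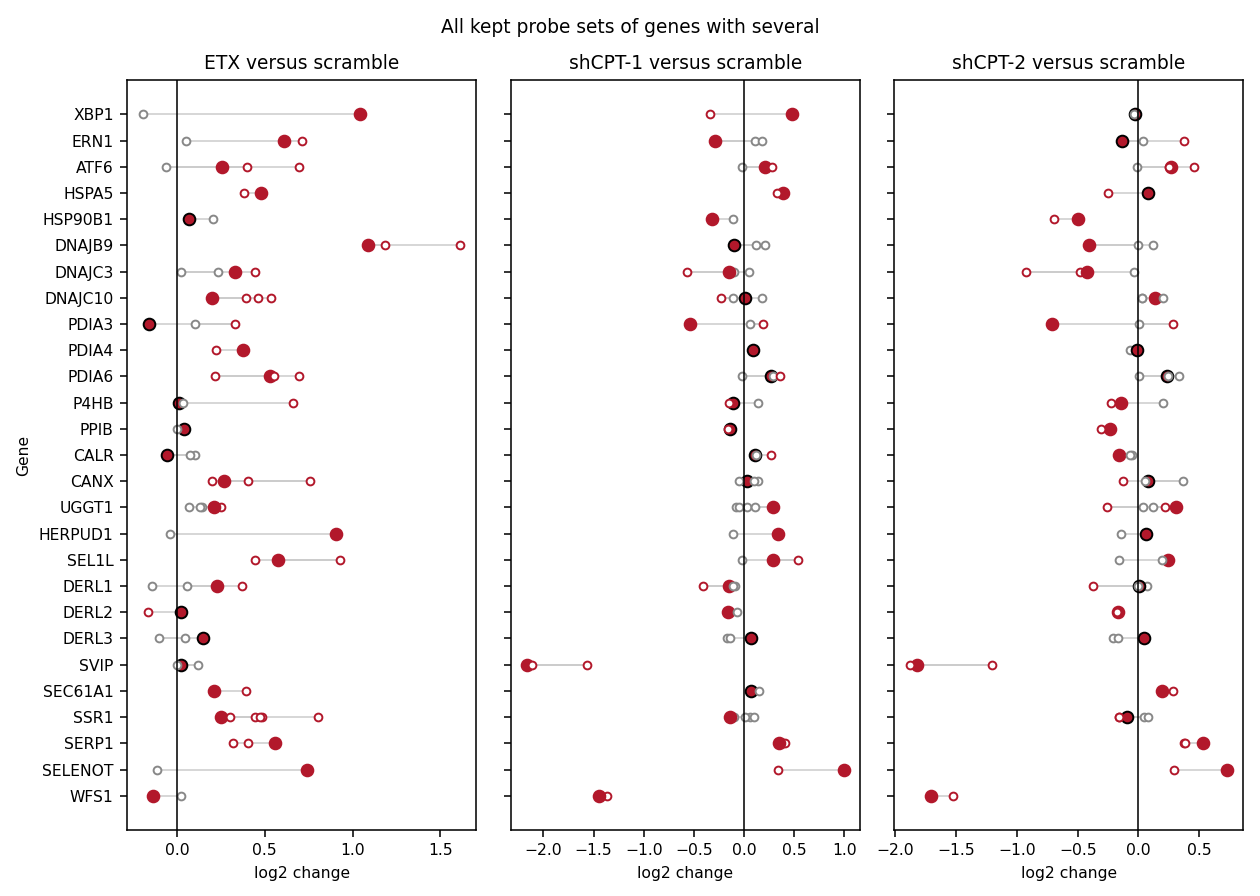
Log2 change against scramble for each kept probe set of the 27 members with several, in ETX, shCPT-1 and shCPT-2; a filled point stands for the gene (black edge where not called) and an open one is another probe set (red where the adjusted p was under 0.05, grey otherwise). In the knockdowns SVIP and WFS1 probe sets move together, while in shCPT-1 those of XBP1 and PDIA3 part.

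The 3 comparisons above share the scramble arrays, so the knockdowns were also set directly against ETX. In shCPT-1, 2 members were higher and 25 lower than with ETX, against 22.9% and 19.8% of all tested genes. The median difference was -0.21 (0.02 over all tested genes). In shCPT-2, 0 members were higher and 27 lower than with ETX, against 24.9% and 20.9% of all tested genes, with a median of -0.30 (0.02 over all tested genes). These comparisons in turn share the ETX arrays.

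After SVIP (-2.19 in shCPT-1 and -1.85 in shCPT-2 against ETX) and WFS1 (-1.31 and -1.57), the largest differences were in genes raised with ETX and in HYOU1. DNAJB9 differed by -1.19 in shCPT-1 (limma adjusted p = 2.77e-08) and by -1.50 in shCPT-2 (adjusted p = 4.2e-09). ERO1B differed by -1.0 and -1.19 (adjusted p = 3.95e-07 and 8.26e-08), ERN1 by -0.90 and -0.74, XBP1 by -0.57 and -1.07, and HERPUD1 by -0.57 and -0.84. Each value is from the gene's brightest probe set, and other ERN1, XBP1 and HERPUD1 probe sets changed differently against scramble. HYOU1, not called with ETX, differed by -0.57 and -0.94. The members higher in shCPT-1 than with ETX were DNAJB11 (0.24, adjusted p = 0.000398) and CALR (0.17, adjusted p = 0.0201).

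The PERK gene EIF2AK3 was not called between either knockdown and ETX. Its difference was -0.05 in shCPT-1 (95% interval -0.19 to 0.09) and 0.02 in shCPT-2 (-0.12 to 0.16). ATF6 differed by -0.04 (-0.20 to 0.12) and 0.02 (-0.14 to 0.18). For EDEM1 the intervals were wider, -0.36 to 0.13 in shCPT-1 and -0.03 to 0.46 in shCPT-2, and for SELENOT wider still, -0.14 to 0.65 and -0.41 to 0.39. BiP (HSPA5) was not called between shCPT-1 and ETX (-0.09, interval -0.19 to 0.01) and was lower in shCPT-2 than with ETX (-0.40, adjusted p = 1.62e-05).

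**Figure D4:**
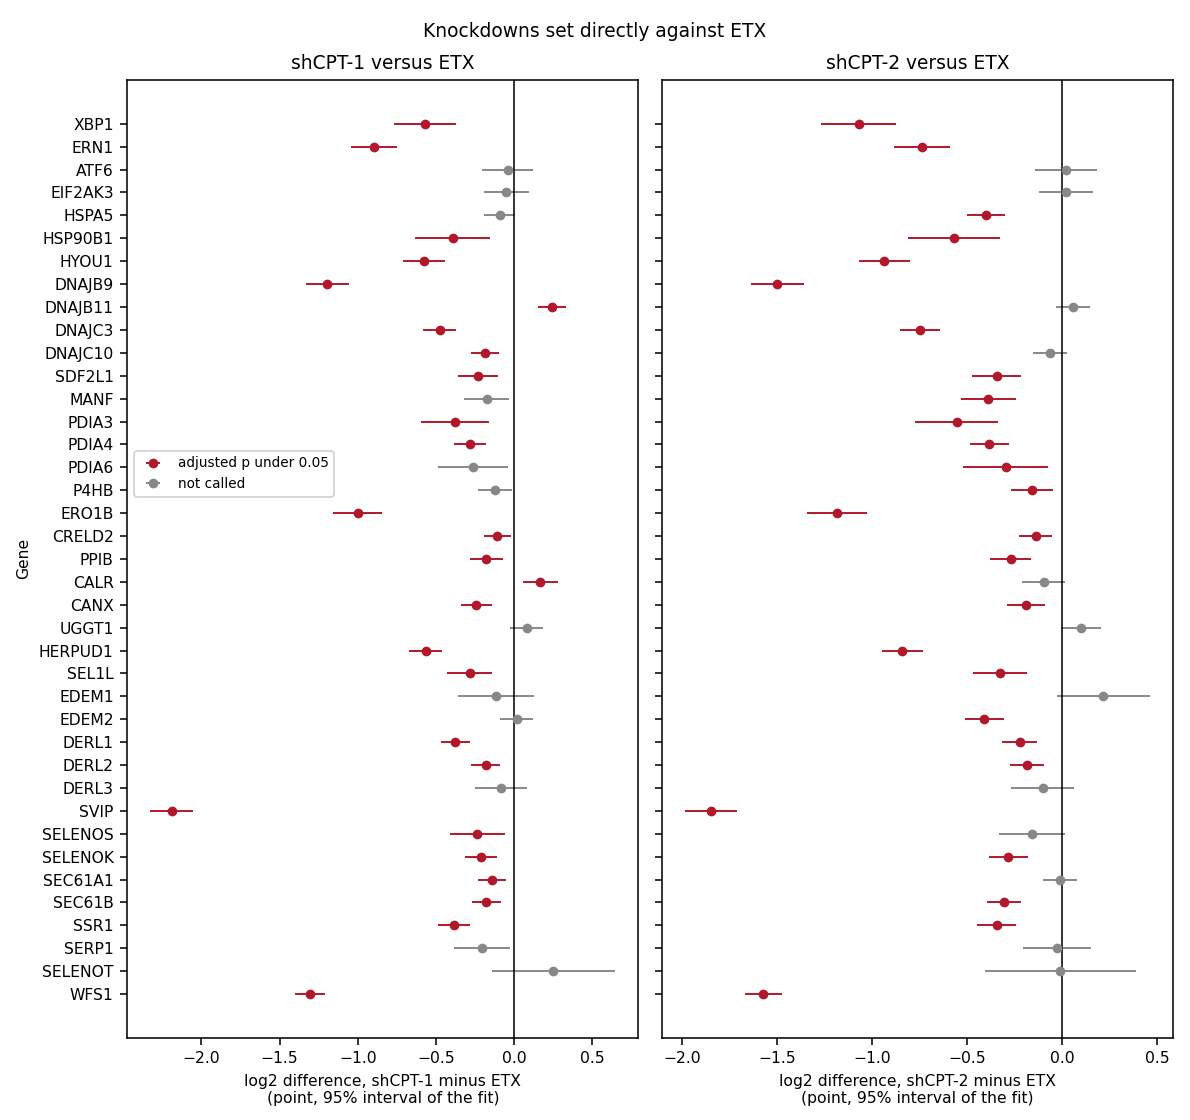
Log2 difference of shCPT-1 minus ETX (left) and shCPT-2 minus ETX (right) for each of the 39 members, with the 95% interval of the fit and red points where the adjusted p was under 0.05. Most points lie left of 0, with SVIP and WFS1 farthest, while EIF2AK3 and ATF6 lie on the line.

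Between the knockdowns, 5 members were higher and 12 lower in shCPT-2 than in shCPT-1, against 17.7% and 17.8% of all tested genes, with a median of -0.07 (0.00 over all tested genes). XBP1 was lower in shCPT-2 by -0.50 (adjusted p = 0.000985), EDEM2 by -0.43 (adjusted p = 2.52e-05), HYOU1 by -0.36, HSPA5 by -0.31 (adjusted p = 0.000215), DNAJB9 by -0.30 and HERPUD1 by -0.28. The XBP1 difference rests on its brighter probe set. The dimmer one differed from scramble by -0.34 in shCPT-1 and -0.03 in shCPT-2. EDEM2, a relative of EDEM1 that makes the first mannose cut for degradation, was thus higher than scramble in shCPT-1 (0.20, adjusted p = 0.00421) and lower than scramble in shCPT-2 (-0.22, adjusted p = 0.00197). Higher in shCPT-2 were SVIP (0.34, adjusted p = 0.000988), EDEM1 (0.33, adjusted p = 0.0374), DERL1, SEC61A1 and DNAJC10 (0.12 to 0.15). That count of 5 was 2 without shCPT-1 replicate 2 or 3 and 3 without any 1 shCPT-2 replicate. For the count of 14 lower members in shCPT-1 against scramble, it was 9 without scramble replicate 1 or 2 or without shCPT-1 replicate 1 or 2, and 7 with the actin covariate, while the 11 higher members in shCPT-2 became 6 with that covariate.

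Genes around the 40 members were read from lists of the same pathways that name no member. Their counts stand beside the shares of all tested genes called higher and lower than scramble. These were 21.9% and 19.4% with ETX, 23.1% and 18% in shCPT-1, and 25.6% and 20.5% in shCPT-2. Of 29 tested genes of the translocon, signal peptidase and oligosaccharyltransferase, 14 rose and 1 fell with ETX (median 0.14 against scramble), 6 higher and 8 lower in shCPT-1 (0.09), and 8 higher and 9 lower in shCPT-2 (0.06). With ETX the oligosaccharyltransferase subunit OSTC rose by 0.68 and SSR3 by 0.47, while SEC62 fell by 0.31. OSTC and SSR3 were called higher in both knockdowns as well, SSR3 by 0.18 in shCPT-1 and 0.43 in shCPT-2. In both knockdowns the signal recognition particle receptor subunit SRPRA was lower, by -0.50 in shCPT-1 and -0.52 in shCPT-2, as was the signal peptidase subunit SPCS2, by -0.38 and -0.45. Of 13 other lectin cycle genes, 7 were higher and 2 lower with ETX, 5 and 2 in shCPT-1, and 4 and 1 in shCPT-2. EDEM3 rose by 0.77 with ETX, and the cargo receptor LMAN1 rose in all 3 comparisons (0.26, 0.30 and 0.34).

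Of 28 tested ER co-chaperones, oxidoreductases and prolyl isomerases outside the members, 11 were higher and 5 lower with ETX, 8 and 6 in shCPT-1, and 5 and 7 in shCPT-2. The prolyl isomerases FKBP9 (0.68) and FKBP14 (0.58) were higher with ETX and FKBP11 was lower (-0.51). FKBP9 was also called higher in both knockdowns (0.27 in shCPT-2), while FKBP14 was called lower in shCPT-2. The membrane thioredoxin TMX4 was lower in both knockdowns, by -1.39 in shCPT-1 and -1.11 in shCPT-2. SELENON, an ER selenoprotein, was lower with ETX (-0.19) and higher in shCPT-1 (0.42) and shCPT-2 (0.58). Of 25 other degradation genes, 6 were higher and 5 lower with ETX, 3 and 4 in shCPT-1, and 6 and 6 in shCPT-2. Their medians were 0.06, 0.04 and 0.02. Their shares called were 24% higher and 20% lower with ETX, 12% and 16% in shCPT-1, and 24% and 24% in shCPT-2. These lay near or below the shares of all tested genes. The cytosolic ubiquitin ligase STUB1 was lower with ETX (-0.39) and in shCPT-2 (-0.24). AUP1, a degradation factor of the ER membrane, was lower in shCPT-1 (-0.45) and was called lower with ETX too.

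Among 16 other regulators of the response, 7 were higher and 3 lower with ETX, 6 and 4 in shCPT-1, and 6 and 6 in shCPT-2. ATF4 (0.58) and DDIT3, which encodes CHOP (0.67), rose with ETX. DDIT3 was also higher in shCPT-1 (0.34), and ATF4 was called lower in shCPT-2. The protease genes MBTPS1 and MBTPS2, whose products cut ATF6 in the Golgi, were higher in both knockdowns, MBTPS1 by 0.49 and 0.61 and MBTPS2 by 0.35 and 0.53. MBTPS2 was higher with ETX too (0.44). CREB3L2, an ATF6 relative, was lower in shCPT-1 (-0.23) and shCPT-2 (-0.86). Of 28 genes listed as PERK and ATF4 output, 21 were higher and 2 lower with ETX (median 0.70). The counts were 15 and 3 in shCPT-1 (0.16), and 12 and 6 in shCPT-2 (0.14). This list counts ATF4 and DDIT3 again, and it includes EIF2AK1, EIF2AK2, EIF2AK4 and EIF2S1, which act upstream of ATF4. Whether any gene of the list moved through PERK was not tested. Of 25 cytosolic and mitochondrial chaperones, 9 were higher and 3 lower with ETX (median 0.03), with 5 and 4 in shCPT-1 (0.02) and 12 and 3 in shCPT-2 (0.10). In shCPT-2 the higher ones included HSPH1 (0.43) and HSPE1 (0.43). Both were called higher with ETX too, HSPH1 by 0.37, and HSPE1 was also called higher in shCPT-1.

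**Figure D5:**
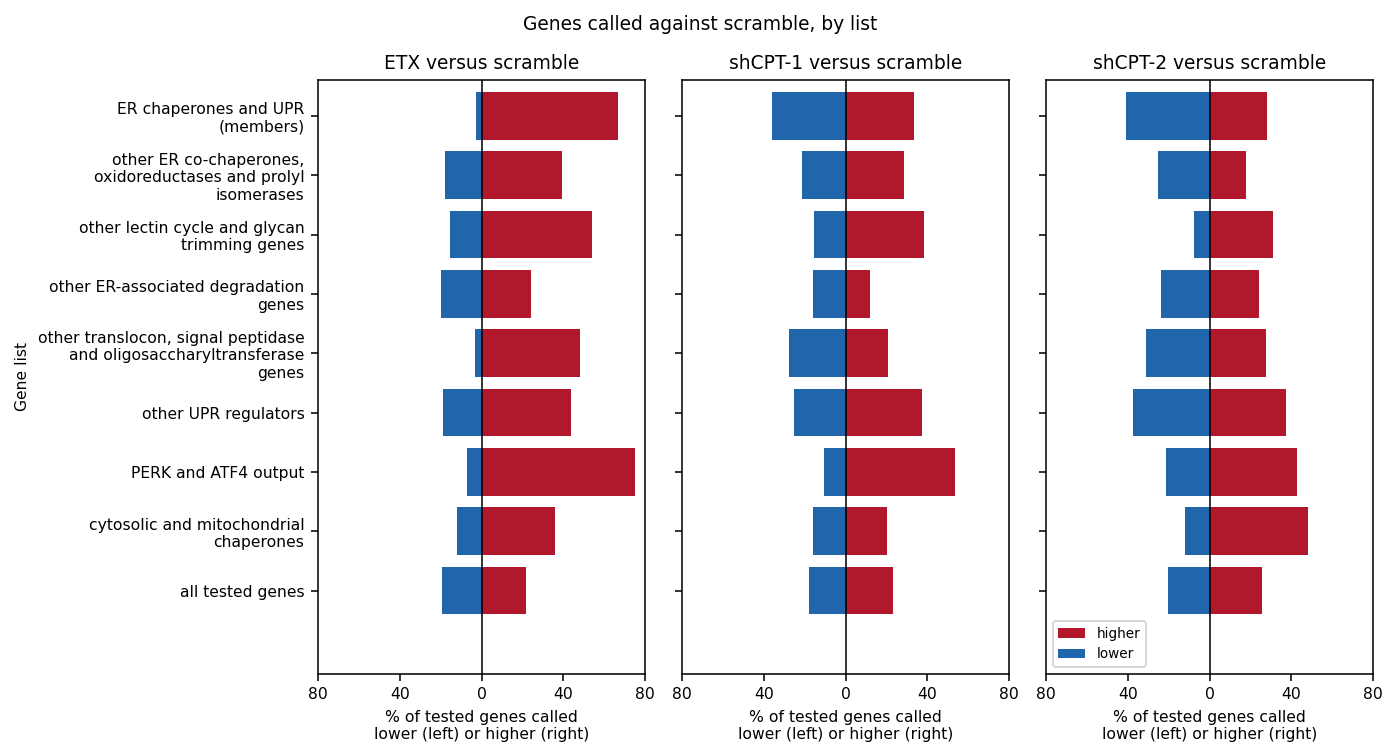
Percent of tested genes called higher (right, red) or lower (left, blue) than scramble in ETX, shCPT-1 and shCPT-2, for the members, each surrounding list and all tested genes. With ETX, PERK and ATF4 output and the members have the longest red bars, and in shCPT-2 the blue bar of the members is longer than its red bar.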

How the data were processed

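Total RNA from MDA231 cells was measured on 12 Affymetrix arrays in 4 groups of 3. The deposited values are 1 linear intensity per probe set and array, made by the authors with RMA per the submitters' processing notes. The sources used here give no version, settings or genome build for it. Members and lists were chosen with earlier results of these data known. Log2 intensities were used. Of 54675 probe sets, 62 were controls, 41091 had 1 symbol, 1801 several and 11721 none; 28628 exceeded the array median on at least 3 arrays. The brightest kept probe set stood for each of 12886 genes (6173 had several kept). Symbols came from the array annotation, updated through gene IDs to RefSeq names. limma 3.58.1 (lmFit and eBayes, data.table version 1.17.8, R 4.3.3) was fitted to all 12 arrays without covariates, with 8 residual and 4.117 prior degrees of freedom. Tests were two-sided, with Benjamini-Hochberg adjustment over all genes. The smallest p of an exact test of 3 against 3 arrays is 0.1, and no such test was run. The number per group limits the precision.

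Values are given array by array for the 12 members with the largest called change against scramble, and for HSPA5, added after its values were seen. From each other list, up to 3 called genes per direction with the smallest p could be named. Promoters were searched with Python 3.11.15. Protein sequences were not analysed here. Alternatives were no filter or one at the 25th percentile, other choices among probe sets, other normalization, trend and robust eBayes, array weights, a fit of only the groups compared, a replicate block, the actin covariate, and leaving out arrays. The steps were tested on simulated data.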

Additional observations from a re-analysis of the deposited data

How the results depend on the processing

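With ETX, between 21 and 27 members were higher than scramble under the alternatives tried, against 26 of 39 as reported. The 21 was of 32 members, those tested without probe sets that can cross-hybridise, and among alternatives that tested all 39 the lowest was 24. The smaller counts moved more. Members lower with ETX (1) were 0 without the filter, with the mean of probe sets, with median centring and with the actin covariate, and 2 with array weights. Members lower in shCPT-1 than scramble (14) were 9 without the filter and 7 with the actin covariate, and members higher in shCPT-2 than scramble (11) were 6 with it. Members higher in shCPT-1 than with ETX (2) were 1 of 32 tested without probe sets that can cross-hybridise. Members higher in shCPT-2 than with ETX (0) were 1 with only the groups compared, 2 with array weights and 2 without the 4 arrays least like their group. Members higher in shCPT-2 than shCPT-1 (5) were 2 without the filter, 3 with the 25th percentile filter, 3 with only the groups compared and 10 with array weights. Leaving out 1 array in turn gave 24 to 27 higher and 0 to 2 lower members for ETX, 11 to 15 and 9 to 14 for shCPT-1, and 10 to 12 and 13 to 17 for shCPT-2 against scramble. It gave 1 to 2 and 22 to 29 for shCPT-1 against ETX, 0 and 25 to 28 for shCPT-2 against ETX, and 2 to 6 and 10 to 12 for shCPT-2 against shCPT-1. The ETX count of 1 lower member was 0 without scramble replicate 1 or 2 or any ETX replicate and 2 without scramble replicate 3, and the count of 2 higher in shCPT-1 than with ETX was 1 without ETX replicate 1 or 3 or shCPT-1 replicate 2 or 3. The cause was not tested.

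Single members reversed in 4 cases. ERN1 in shCPT-1 was 0.00222 with the mean of probe sets (adjusted p = 0.979). Without probe sets that can cross-hybridise, SSR1 in shCPT-1 was 0.10 (adjusted p = 0.107), DNAJB9 in shCPT-2 was 0.12 (adjusted p = 0.507) and CANX in shCPT-2 was -0.13 (adjusted p = 0.0323), as other probe sets then stood for these genes. Of 27 called members against scramble, 24 kept their call with ETX under every alternative that tested them (not ATF6, SDF2L1 and WFS1), 13 in shCPT-1 and 16 in shCPT-2. Without probe sets that can cross-hybridise only 32 members were tested. HERPUD1 and SEL1L were among those left out there. Replicate numbers did not pair arrays: same-numbered arrays' deviations from their group means correlated at -0.456 to 0.328. With a replicate block, 26 members were higher and 1 lower with ETX, 13 and 13 in shCPT-1 and 11 and 16 in shCPT-2 against scramble.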
